A study of Mus musculus with 6 samples.

Results

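The genes described here encode the proteasome: its subunits, its activators and the chaperones that assemble it. They were chosen by name, as every gene of the deposited table whose symbol starts with Psma, Psmb, Psmc, Psmd, Psme, Psmf or Psmg and a number and whose transcript types include a protein-coding one. The rule found 50 of the 28795 genes in the table. A further 3 matching names, Psma5-ps, Psmb5-ps and Psmb7-ps2, had no protein-coding transcript type and were left out.

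RNA was sequenced from mouse bone marrow monocytes, precursors of macrophages and osteoclasts, kept in 50 ng/ml M-CSF, the growth factor these cells need. RANKL, the cytokine that drives osteoclast formation, was used at 50 ng/ml, and 3 libraries were taken at day 0 and 3 at day 5 of RANKL. All cells shared the M-CSF medium, and the labels name no strain, genotype, sex or age. At day 0 the treatment label reads RANKL too, so the days were separated by the time label, and cells kept 5 days in M-CSF without RANKL were not analysed here, so RANKL and time in culture cannot be told apart. The labels leave unsaid whether libraries of the same day are separate cultures or animals, and the p-values cover only the spread from library to library, which may be technical.

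The proteasome is the protease that degrades ubiquitin-tagged proteins. Its 20S core is a barrel of alpha rings, which form the gate, around beta rings, which hold the proteolytic sites. The 19S particle caps the barrel: its base holds the ATPases that unfold substrates, and its lid removes ubiquitin. In the immunoproteasome, interferon-gamma-inducible beta subunits take the places of the constitutive catalytic ones, and together with the PA28 activator they alter the peptides made for MHC class I presentation.

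The counts over all genes summed to between 64616609 and 82721513 per library. The proteasome genes took 0.416% to 0.461% of the counts at day 0 and 0.496% to 0.512% at day 5. Day 0 replicate 3 stood apart for these genes: it was the lowest library of its day for 36 of 49 of them (73.5%), against 35.8% of all tested genes. A gene related to 18S rRNA took 4.09% of the counts in day 0 replicate 1 and 0.158% to 0.508% in the other libraries. CPM are counts per 1e6 counts that the tested genes took in a library, after TMM scaling, which centres the bulk of genes. The osteoclast markers, such as Acp5 and Ctsk, summed to 404 to 589 CPM at day 0 and 26022 to 29153 CPM at day 5, and 10 of 10 rose. The macrophage markers summed to 4932 to 5197 CPM at day 0 and 2574 to 3104 CPM at day 5, and 7 of 8 fell. The stromal and osteoblast markers were not near 0: they summed to 14454 to 19867 CPM at day 0, highest in replicate 3, and to 10124 to 11260 CPM at day 5, and 8 of 10 tested fell. Markers of other blood cells were low, with T and NK cell markers at 11.9 to 14.9 CPM in every library, B cell markers at 0.271 to 1.47 CPM, dendritic cell markers at 15.5 to 23.6 CPM with Flt3 at 0, and neutrophil markers at 38.3 to 47.0 CPM at day 0 and at most 22.8 CPM at day 5. Of the 4 neutrophil markers tested, Csf3r and Mmp8 fell, while S100a8 and S100a9 rose 4.16-fold and 6.56-fold. The part of these cell types in the results below was not tested. In bulk RNA, fewer cells of a type and less RNA per cell cannot be told apart.

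Most proteasome genes differed little between the days, and those that fell all belonged to the immunoproteasome and PA28. Of the 50 genes, 49 passed the filter, which asked for FPKM values of 1 or more in 3 or more libraries. With edgeR's quasi-likelihood test at a Benjamini-Hochberg adjusted p under 0.05 over 11908 genes, 19 of the 49 rose (38.8%) against 26.6% of all tested genes, and 4 fell (8.16%) against 28.8%. The other 26 were not called. The median log2 difference, day 5 minus day 0, was 0.10 over the 49 genes and -0.00 over all tested genes. The sum of all 50 genes was 4809, 4640 and 4260 CPM at day 0 and 4959, 5040 and 4972 CPM at day 5, so the days did not overlap, with a ratio of 1.09 between the means.

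The differences were small for nearly every gene. With a log2 difference of at least 1 added to the call, 1 gene rose, the assembly chaperone Psmd10, against a background of 5.84%, and 0 fell, against 6.47%. In 23 of the 49 genes every day 5 library lay above every day 0 library, against 31.1% of all tested genes, and in 5 every day 5 library lay below, against 32.2%. In counts simulated from these libraries, edgeR found 62 of 100 genes whose log2 change was set to 0.5, and 97 of 100 set to 1. The simulation changed 200 of the 11908 genes, whereas 6608 were called in the data. Its adjustment was therefore stricter, and its shares do not measure the sensitivity here: Psme3, for example, was called at a log2 of 0.22. A small difference could still be missed, and a gene that was not called is not shown to be level.

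**Figure D1:**
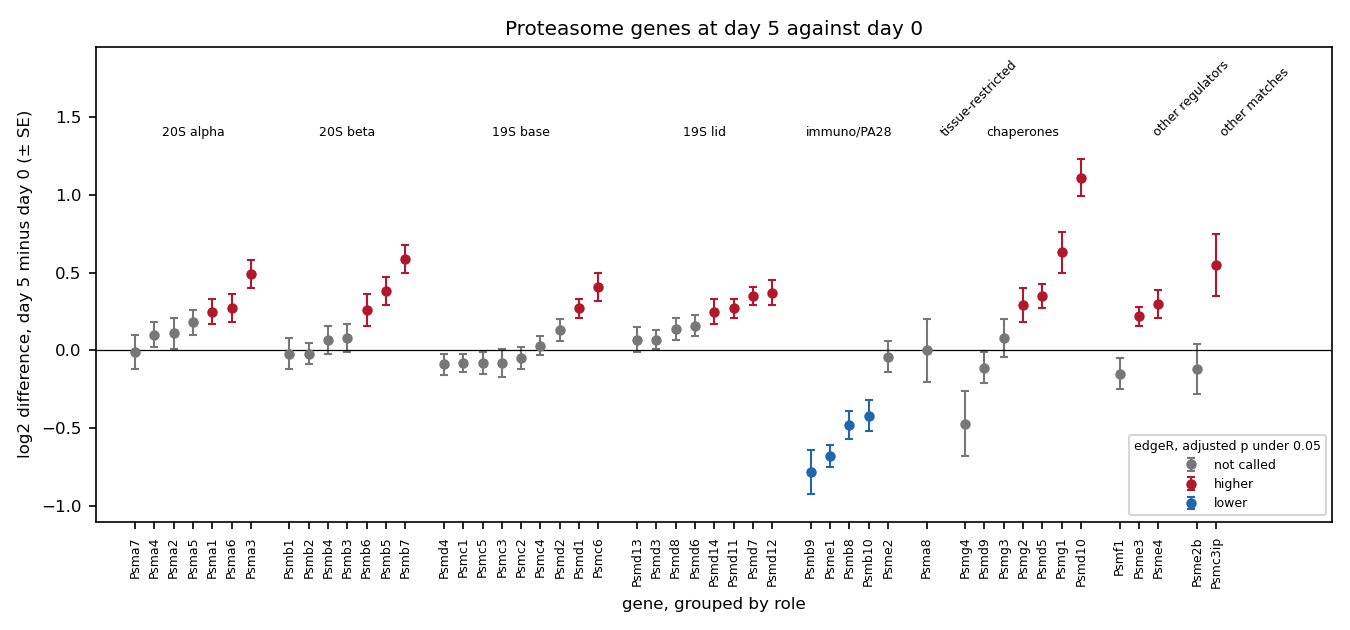
The log2 difference (day 5 minus day 0, vertical axis, bars ± SE) of the 49 tested proteasome genes, grouped by role along the horizontal axis and coloured by edgeR call. Psmd10 lies highest at 1.11, the 4 genes called lower, all of the immunoproteasome and PA28, lie between -0.78 and -0.42, the uncalled Psmg4 lies at -0.47, and most 19S base genes lie near 0.

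The alpha ring, whose subunits form the gate of the barrel, had 3 of 7 genes higher at day 5 (42.9%) and 0 lower. Of all tested genes 26.6% rose and 28.8% fell. The median log2 difference of the ring was 0.18. Psma3 had the largest difference of the ring, with 69.4, 65.9 and 53.7 CPM at day 0 and 86.0, 85.7 and 93.8 CPM at day 5. Its days did not overlap, and it rose by a log2 of 0.49 ± 0.09 (SE), adjusted p = 9.95e-04 in edgeR's quasi-likelihood test. Psma6 went from 127, 105 and 96.4 CPM to 134, 129 and 131 CPM and rose by a log2 of 0.27 ± 0.09 (adjusted p = 0.0303 in edgeR's test), a call that was lost in 5 of 15 alternatives, each of which left out a library. Psma1 went from 113, 105 and 92.7 CPM to 119, 122 and 128 CPM and rose by 0.25 ± 0.08 (adjusted p = 0.0224 in edgeR's test), a call that was lost without day 5 replicate 2 and without day 5 replicate 3. Both gains were narrow, since the highest day 0 library lay close under the lowest day 5 library. The remaining alpha subunits, Psma2, Psma4, Psma5 and Psma7, had log2 differences of -0.01 to 0.18 and were not called. Psma7 had 120, 111 and 86.1 CPM at day 0 and 102, 108 and 106 CPM at day 5, so its 2 highest and its lowest libraries were all of day 0. Psma5 had 80.5, 80.7 and 67.2 CPM at day 0 and 81.4, 91.4 and 85.1 CPM at day 5: its days did not overlap, yet its adjusted p in edgeR's test was 0.0991.

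In the constitutive beta ring 3 of 7 genes rose (42.9%, against 26.6% of all tested genes) and 0 fell (against 28.8%). The median log2 was 0.08, and the 3 that rose were the catalytic subunits. Psmb5 carries the chymotrypsin-like site and had 88.8, 75.3 and 70.8 CPM at day 0 and 105, 107 and 94.3 CPM at day 5. Psmb6 carries the caspase-like site and had 98.4, 94.3 and 75.5 CPM at day 0 and 105, 114 and 103 CPM at day 5. Psmb7 carries the trypsin-like site and had 95.9, 91.8 and 73.6 CPM at day 0 and 128, 132 and 132 CPM at day 5. Every day 5 library lay above every day 0 library for each of them. In edgeR's quasi-likelihood test the log2 differences were 0.38 ± 0.09 for Psmb5 (adjusted p = 0.00393), 0.26 ± 0.10 for Psmb6 (adjusted p = 0.0369) and 0.59 ± 0.09 for Psmb7 (adjusted p = 2.56e-04). The call of Psmb6 was lost without day 0 replicate 3, without day 5 replicate 1, without day 5 replicate 2 and with no filter on low values.

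The non-catalytic beta subunits Psmb1, Psmb2, Psmb3 and Psmb4, which complete the ring, had log2 differences of -0.02 to 0.08 and none was called. Psmb1 had 149, 137 and 111 CPM at day 0 and 127, 131 and 132 CPM at day 5, and Psmb2 had 119, 125 and 113 CPM at day 0 and 114, 122 and 115 CPM at day 5. Psmb3 had 92.4, 95.2 and 76.4 CPM at day 0 and 90.7, 99.0 and 88.8 CPM at day 5. Psmb4 had 140, 145 and 113 CPM at day 0 and 137, 144 and 138 CPM at day 5. In all 4 the day 5 libraries fell within or close to the range of the day 0 libraries, and the days overlapped. Summed, the 3 catalytic genes went from 283, 261 and 220 CPM to 338, 353 and 329 CPM, a ratio of 1.33 between the means. The 4 non-catalytic genes went from 500, 503 and 413 CPM to 469, 496 and 473 CPM, a ratio of 1.02. The difference between the catalytic and the non-catalytic genes was not tested. Over both rings, 6 of 14 genes rose (42.9%, against 26.6% of all tested genes). Without day 5 replicate 2, 3 of 14 rose, and 4 of 14 rose without day 0 replicate 3.

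The promoters of Psmb5 and Psmb6 are shown because each holds a match to TGACNNNGC, the core of the antioxidant response element, the site bound by Nrf2 and Nrf1, which are known to drive constitutive proteasome genes. Sequences are from RefSeq on GRCm38.p6, read 5′ to 3′ on the strand of the gene and ending before its start, with the match in capitals. The Psmb6 stretch is chr11:70525323-70525356 on the plus strand, and the Psmb5 stretch is chr14:54618023-54618067 on the minus strand.
Psmb6: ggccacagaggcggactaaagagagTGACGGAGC
Psmb5: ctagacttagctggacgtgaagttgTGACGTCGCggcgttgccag
The match of Psmb6 occupied positions -9 to -1 from the RefSeq start and that of Psmb5 positions -47 to -39. In the 250 bases before the start, on either strand, this motif was found in 5 of 45 promoter windows of the proteasome genes (11.1%) and in 10.2% of all 32851 windows. The 5 windows were those of Psmb5, Psmb6, Psmc6, Psmd12 and Psmd9. The first 4 of these genes rose, and Psmd9 was not called. Of the 49 tested proteasome genes 38.8% rose, and of all tested genes 26.6%. Psmb7, which also rose, had no promoter window to search. A link between the motif and the calls was not tested.

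**Figure D2:**
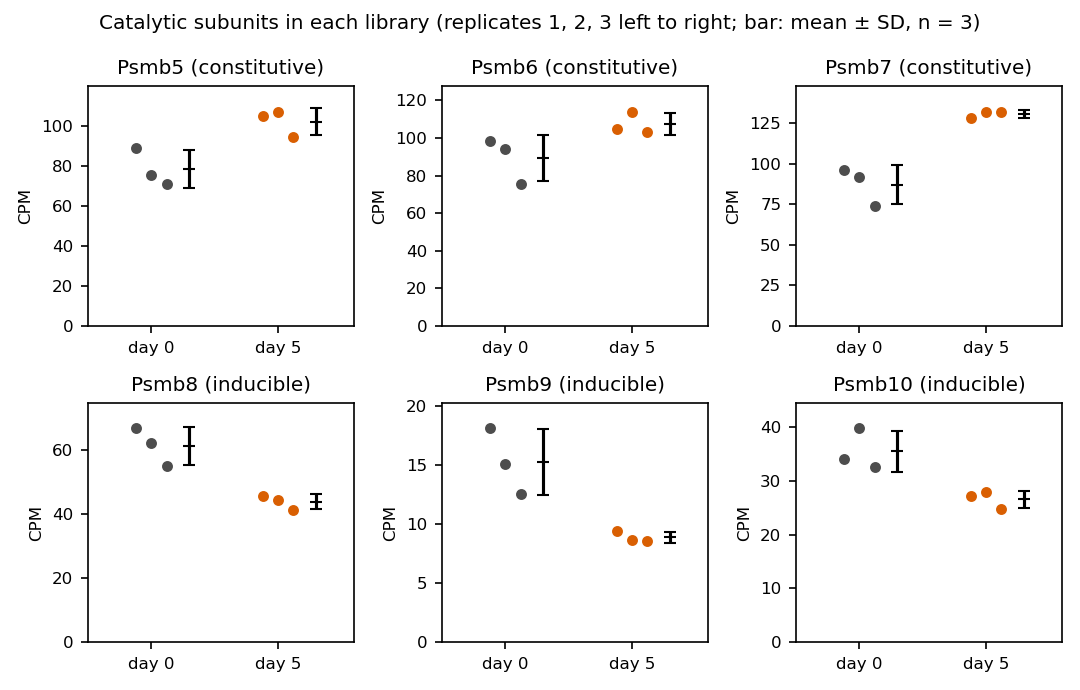
CPM (vertical axes, each from 0) of the constitutive catalytic subunits (upper row) and of the inducible subunit that replaces each (lower row), with a point per library and the mean ± SD of 3 libraries beside them. For all 6 genes the 3 day 5 libraries lie to the same side of all day 0 libraries: above for Psmb5, Psmb6 and Psmb7 and below for Psmb8, Psmb9 and Psmb10.

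The 19S base had 2 of 9 genes higher (22.2%, near the 26.6% of all tested genes) and 0 lower (against 28.8%). Its median log2 difference was -0.05. Of the 6 ATPases, only Psmc6 was called in edgeR's test: it had 72.9, 68.2 and 75.8 CPM at day 0 and 86.9, 92.6 and 109 CPM at day 5, and rose by a log2 of 0.41 ± 0.09 (adjusted p = 0.00220). The other 5, Psmc1, Psmc2, Psmc3, Psmc4 and Psmc5, had log2 differences of -0.08 to 0.03. Psmc1 had 168, 167 and 158 CPM at day 0 and 152, 157 and 156 CPM at day 5, so every day 5 library lay below, but the gap was small and it was not called (adjusted p = 0.270 in edgeR's test). Psmc3 had 185, 193 and 152 CPM at day 0 and 164, 172 and 165 CPM at day 5, and Psmc5 had 108, 98.1 and 100 CPM at day 0 and 99.5, 99.2 and 90.5 CPM at day 5. Summed, the ATPase genes were at 785, 759 and 722 CPM at day 0 and 746, 752 and 760 CPM at day 5, a ratio of 0.997. Psmd1, a large scaffold subunit of the base, was even at day 0, with 190, 186 and 190 CPM, and reached 219, 228 and 234 CPM at day 5. It rose by 0.27 ± 0.06 on the log2 scale (adjusted p = 0.00388 in edgeR's test). Psmd2, the other large scaffold subunit, had 416, 400 and 399 CPM at day 0 and 473, 439 and 417 CPM at day 5. Its days did not overlap, but its log2 difference was 0.13 ± 0.07, and it was not called, nor was Psmd4, a ubiquitin receptor, at -0.09 ± 0.07.

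The 19S lid had 4 of 8 genes higher (50.0%, against 26.6% of all tested genes) and 0 lower (against 28.8%). All 8 fitted log2 differences were above 0, with a median of 0.21. Psmd14 is the deubiquitinase of the lid, and Psmd7 is its partner. Psmd7 had 132, 134 and 127 CPM at day 0 and 160, 171 and 168 CPM at day 5, without overlap, and rose by a log2 of 0.35 ± 0.06 (adjusted p = 7.36e-04 in edgeR's test). Psmd14 went from 94.4, 85.6 and 82.6 CPM to 99.1, 100 and 114 CPM and rose by 0.25 ± 0.08, a call that was lost without day 5 replicate 3 (log2 0.19, adjusted p = 0.0653 in edgeR's test). The scaffold subunit Psmd11 had 84.8, 84.7 and 83.4 CPM at day 0 and 102, 105 and 97.3 CPM at day 5 and rose by 0.27 ± 0.06. The scaffold subunit Psmd12 had 83.6, 71.6 and 75.9 CPM at day 0 and 94.3, 99.7 and 104 CPM at day 5 and rose by 0.37 ± 0.08. Neither gene had a day 5 library within its day 0 range. The scaffold subunits Psmd3, Psmd6, Psmd8 and Psmd13 had log2 differences of 0.07 to 0.16 and were not called. Of these, Psmd6 had 78.1, 80.1 and 70.4 CPM at day 0 and 84.4, 85.1 and 86.3 CPM at day 5 (adjusted p = 0.0665 in edgeR's test), and Psmd8 had 231, 238 and 212 CPM at day 0 and 247, 260 and 244 CPM at day 5. Both had days that did not overlap, and both were called with library totals in place of TMM. The 8 lid genes summed to 974, 967 and 905 CPM at day 0 and to 1070, 1105 and 1084 CPM at day 5, a ratio of 1.15. A near-identical sequence, A730017L22Rik, held 6.85% as many counts as Psmd11, so reads of this pair may be split.

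The immunoproteasome and PA28 genes were lower at day 5 in 4 of 5 cases (80.0%, against 28.8% of all tested genes). A rise was called in 0, against 26.6% of all tested genes, and the median log2 was -0.48. Psmb9, which replaces Psmb6, had 18.1, 15.1 and 12.5 CPM at day 0 and 9.39, 8.69 and 8.54 CPM at day 5. Psmb8, which replaces Psmb5, had 66.7, 62.2 and 54.9 CPM at day 0 and 45.7, 44.4 and 41.2 CPM at day 5. Psmb10, which replaces Psmb7, had 34.0, 39.7 and 32.5 CPM at day 0 and 27.1, 27.8 and 24.8 CPM at day 5. The days did not overlap for any of the 3. By edgeR's quasi-likelihood test, Psmb9 fell by 0.78 ± 0.14 on the log2 scale (adjusted p = 7.47e-04), Psmb8 by 0.48 ± 0.09 (adjusted p = 7.13e-04) and Psmb10 by 0.42 ± 0.10 (adjusted p = 0.00408). In day 0 replicate 3, where all 5 genes of this group were at their lowest for the day, each still lay above its level in the day 5 libraries, except for Psme2.

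PA28 is a ring of the products of Psme1 and Psme2, and only Psme1 was called. Psme1 had 92.0, 89.5 and 79.2 CPM at day 0 and 54.1, 53.4 and 54.7 CPM at day 5, and fell by 0.68 ± 0.07 on the log2 scale (adjusted p = 1.22e-05 in edgeR's test). Psme2 had 67.9, 61.4 and 51.9 CPM at day 0 and 61.0, 56.2 and 59.1 CPM at day 5, with overlapping days and a log2 difference of -0.04 ± 0.10 (adjusted p = 0.760 in edgeR's test). Psme2b is 99.4% identical to Psme2 over 82.5% of its length and held 25.8% as many counts, so the reads of the pair may be split. With their counts added together, an alternative chosen after the values were seen, the log2 difference was -0.05 (adjusted p = 0.612 in edgeR's test). The log2 ratio of Psme1 to Psme2, likewise picked with the values known, was 0.21 ± 0.09 at day 0 and -0.44 ± 0.05 at day 5 (SD, n = 3), with p = 0.1 in the exact two-sided permutation test, the smallest value 3 against 3 libraries can give. Summed over the 5 genes, the immunoproteasome and PA28 stood at 279, 268 and 231 CPM at day 0 and 197, 191 and 188 CPM at day 5, a ratio of 0.741.

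The promoter of Psmb8 is shown because it holds the match of this group to TTCNNNGAA, the core of the gamma-activated site, an element of interferon-gamma-inducible promoters. The stretch is chr17:34198090-34198114 on the plus strand of GRCm38.p6, from RefSeq, at positions -105 to -81 from the start, with the match in capitals. It lies within an annotated Psmb8 exon.
Psmb8: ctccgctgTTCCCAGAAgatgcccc
This motif was found in 2 of 45 proteasome windows (4.44%), those of Psmb8 and Psmg1, and in 7.02% of all windows. TTTCNNTTT, the core of the interferon-stimulated response element, was found in 0 of 6 windows of the immunoproteasome and PA28 genes, in 4 of 45 proteasome windows (8.89%) and in 9.37% of all windows. These counts cover only these letters, on either strand, in the 250 bases before the RefSeq start. The 6 windows are of 5 genes, since Psme2 has 2 that share bases, and each overlaps an annotated exon of its own gene. The Psmb10 window, chr8:105938393-105938642, lies upstream of the deposited start of this minus-strand gene at 105938104, and the bases between were not searched. The promoter stretches printed here held no match to the other motifs searched.

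Measured within each library, the ratio of the inducible subunit to the constitutive subunit that holds the same place in the ring was lower at day 5. The log2 FPKM ratio of Psmb8 to Psmb5 was -2.32, -2.19 and -2.28 at day 0 and -3.11, -3.18 and -3.11 at day 5, a difference of -0.87, or 1.83-fold. The ratio of Psmb9 to Psmb6 was -3.41, -3.62 and -3.56 at day 0 and -4.46, -4.69 and -4.56 at day 5, a difference of -1.04, or 2.05-fold. The ratio of Psmb10 to Psmb7 was -0.49, -0.20 and -0.17 at day 0 and -1.24, -1.24 and -1.41 at day 5, a difference of -1.01, or 2.01-fold. All 3 ratios were lower in every day 5 library than in every day 0 library. Each gave p = 0.1 in the exact two-sided permutation test, again the smallest value possible. A ratio within a library does not depend on the scaling between libraries, and it does not say which of the 2 genes moved.

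Per kilobase of coding transcript, the inducible subunit was the minor form in every pair on both days. Psmb8 made up 30.2% ± 1.02 of the sum of Psmb8 and Psmb5 at day 0 and 19.2% ± 0.437 at day 5 (SD, n = 3). Psmb9 made up 9.11% ± 0.609 of its pair with Psmb6 at day 0 and 4.66% ± 0.351 at day 5. Psmb10 made up 26.6% ± 2.35 of its pair with Psmb7 at day 0 and 15.2% ± 0.871 at day 5. The size of a share depends on the length used, and the SD does not cover this. Psmb7 has 3421 bases over all exons and 1160 in the coding transcript, against 1705 and 1311 for Psmb10. By the deposited FPKM, which use all exons, the mean log2 ratio of Psmb10 to Psmb7 at day 0 was -0.29, closer to equal amounts. The shares of the day 0 and the day 5 libraries did not overlap in any pair.

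**Figure D3:**
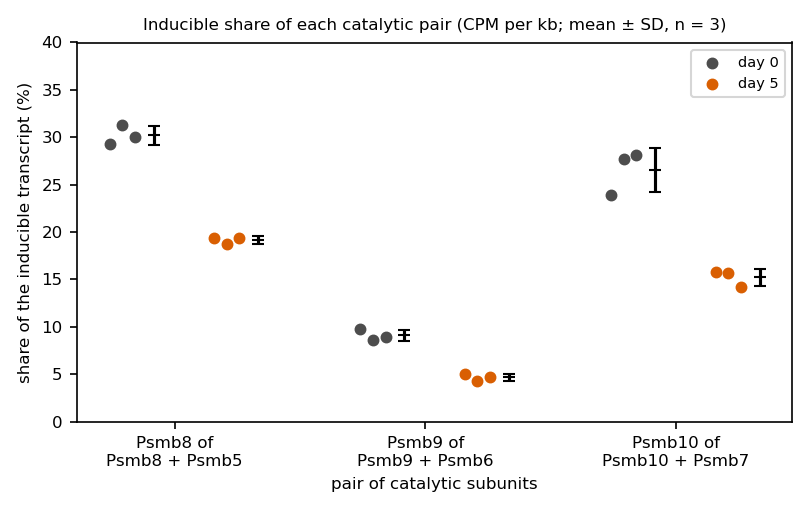
Share of the inducible subunit (vertical axis, percent of the summed CPM per kilobase of both genes) in the 3 catalytic pairs, with a point per library and the mean ± SD of 3 libraries. In each pair the 3 day 5 points lie below the 3 day 0 points, with Psmb9 lowest at 9.11% and 4.66%.

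Overlapping genes limit some of these values, because the sources used here do not say whether reads were counted by strand. An exon of Psmb7 overlaps an exon of Nek6, on the opposite strand, over 405 bases, and Nek6 fell by 1.13 on the log2 scale while Psmb7 rose. Psmb9 overlaps Tap1, which shares its promoter region on the opposite strand, over 212 bases, and Tap1 had a log2 difference of -0.20 ± 0.09 and was not called. Psmc3 overlaps Slc39a13, which rose by 0.71, over 147 bases, and Psmd13 overlaps Sirt3, which rose by 1.07, over 329 bases.

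The assembly chaperones build the particle and are not part of it. Of their 7 genes, 4 were higher (57.1%, against 26.6% of all tested genes) and 0 lower (against 28.8%). Their median log2 difference was 0.29. Psmd10, or gankyrin, holds an ATPase during assembly of the base and had the largest difference of all 49 genes. It had 32.9, 28.1 and 23.0 CPM at day 0 and 61.5, 60.6 and 59.4 CPM at day 5, a 2.16-fold rise (log2 1.11 ± 0.12, adjusted p = 1.02e-05 in edgeR's test). Its day 5 libraries were close together and all above the highest day 0 library. Psmd5, another base chaperone, had 60.3, 52.9 and 50.3 CPM at day 0 and 66.6, 71.9 and 70.2 CPM at day 5 and rose by a log2 of 0.35 ± 0.08. Psmd9, the remaining base chaperone, was not called, with a log2 difference of -0.11 ± 0.10.

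Among the chaperones of the 20S core, Psmg1 and Psmg2, which act as a pair on the alpha ring, both rose. Psmg1 had 15.5, 11.7 and 11.1 CPM at day 0 and 20, 19.6 and 19.3 CPM at day 5 and rose by a log2 of 0.63 ± 0.13 (adjusted p = 0.00184 in edgeR's test). Psmg2 had 12.9, 12.2 and 11.4 CPM at day 0 and 14.5, 14.4 and 15.8 CPM at day 5 and rose by 0.29 ± 0.11, a call that was lost in 6 of 15 alternatives. The other pair was not called: Psmg3 had a log2 difference of 0.08 ± 0.12. Psmg4 had 5.38, 7.40 and 4.52 CPM at day 0 and 3.51, 4.93 and 4.09 CPM at day 5, which gave a log2 difference of -0.47 ± 0.21 with overlapping days. It was called lower only without day 0 replicate 3 (-0.59, adjusted p = 0.0442 in edgeR's test). The 7 chaperone genes summed to 170, 151 and 138 CPM at day 0 and 205, 211 and 205 CPM at day 5, a ratio of 1.35.

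The promoter of Psmd10 is shown because this gene had the largest difference. The stretch is chrX:140956729-140956783 on the minus strand of GRCm38.p6, from RefSeq, and ATTGG, in capitals, is the NF-Y box CCAAT on the other strand.
Psmd10: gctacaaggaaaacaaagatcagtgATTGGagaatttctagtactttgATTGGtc
The full window held 3 matches to CCAAT on either strand, 2 of them in this stretch. CCAAT was found in 15 of 45 proteasome windows (33.3%) and in 33.8% of all windows. In the alpha ring it was found in 5 of 8 windows (62.5%), those of Psma1, Psma2, Psma3, Psma6 and Psma7. Psma6 had 2 windows, and only 1 held matches. The share was 25.0% in the constitutive beta ring and 33.3% in the base. It was 16.7% each in the lid, the immunoproteasome and PA28, and the chaperones. Of the alpha genes with a match, Psma1, Psma3 and Psma6 rose, where 26.6% of all tested genes rose. A link between the motif and the calls was not tested.

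The other activators rose slightly. Psme3, the nuclear relative of PA28, had 140, 138 and 144 CPM at day 0 and 168, 165 and 157 CPM at day 5 and rose by a log2 of 0.22 ± 0.06. Psme4, the activator PA200, had 104, 96.7 and 115 CPM at day 0 and 119, 123 and 146 CPM at day 5 and rose by 0.30 ± 0.09, a call that was lost without day 0 replicate 2 and without day 5 replicate 3. Psmf1, an inhibitor of the core in vitro, had a log2 difference of -0.15 ± 0.10 and was not called.

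Tissue-restricted subunits and other matches of the name rule complete the 50. Psma8, the testis alpha subunit, was at 2.42 to 3.25 CPM in all libraries, with a log2 difference of 0.00 ± 0.20. Psmb11, the beta subunit of thymic epithelium, was the untested gene, with 0, 0 and 4 counts at day 0 and 0, 0 and 4 at day 5. Psmc3ip, a protein of meiotic recombination and not a proteasome subunit, rose by a log2 of 0.55 ± 0.20 from a low level. Its call was lost in 5 of 15 alternatives. It overlaps the more abundant Mlx, which rose by 0.29, over 512 bases on the opposite strand. Psme2b, the copy of Psme2, had a log2 difference of -0.12 ± 0.16 and was not called.

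Levels between genes are compared per kilobase of the longest principal coding transcript, and their order depends on that choice. Psma3 was given 2846 bases, for example, and Psma1 1201. By the deposited FPKM, which use all exons, the day 0 means were 15.1 for Psma3, 12.3 for Psmd11 and 19.3 for Psmc6. Toward the other end they were 93.8 for Psmd2, 92.3 for Psmb2 and 69.5 for Psmd8. Psma6 (82.8), Psmb5 (81.3) and Psmc1 (79.5) lay above Psmd8 by this measure. Per kilobase, the standard 20S and 19S subunits at day 0 ran from 22.1 CPM for Psma3, 29.6 for Psmd11 and 32.4 for Psmc6 to 137 for Psmd2, 138 for Psmb2 and 147 for Psmd8. The 3 genes at the low end all rose, to 31.1, 35.6 and 43.1 CPM per kilobase, and stayed at the low end at day 5. At the high end the ranges of mean ± SD of Psmd8, Psmb2 and Psmd2 overlapped, so their order is not resolved. The means over each group at day 0 were 75.2 CPM per kilobase for the alpha ring, 102 for the constitutive beta ring, 85.3 for the base and 67.5 for the lid. The immunoproteasome and PA28 genes averaged 43.4 at day 0 and 32.7 at day 5, and the chaperones 12.7 and 17.3.

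**Figure D4:**
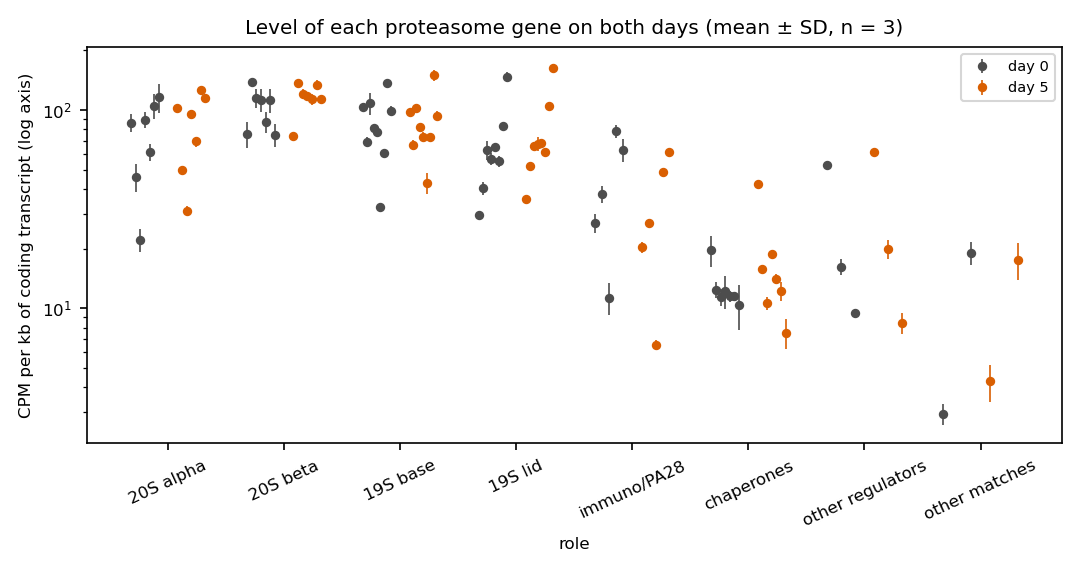
CPM per kilobase of coding transcript (vertical log axis, mean ± SD of 3 libraries) of each proteasome gene by role at day 0 and day 5, without the tissue-restricted Psma8 and Psmb11. The standard 20S and 19S subunits lie between 22.1 and 163, Psmb9 falls from 11.3 to 6.56, and Psmd10 stands above the other chaperones at 42.3 on day 5.

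Within day 0, the core subunits were lowest together in replicate 3. Against the other libraries of the day, it had a median log2 deviation of -0.27 over the alpha ring and -0.34 over the constitutive beta ring, and it was the lowest library for 7 of 7 genes in each. The deviation was -0.23 over the immunoproteasome and PA28, -0.10 over the lid and -0.04 over the base, against -0.00 over all tested genes. At day 5 the medians of these 5 groups lay between -0.08 and 0.09. The stromal markers were highest in day 0 replicate 3 as well, and their part in this was not tested. Without this library 15 of the proteasome genes rose and 5 fell.

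**Figure D5:**
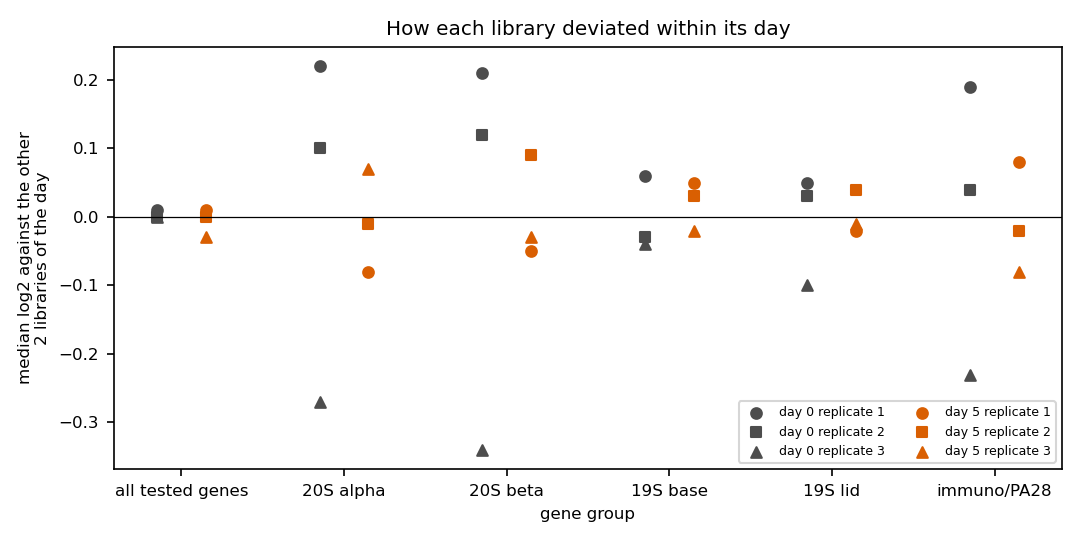
Median log2 deviation of each library from the other 2 libraries of its day (vertical axis) over all tested genes and over 5 groups of proteasome genes. Day 0 replicate 3 lies at -0.27 for the alpha ring, -0.34 for the beta ring and -0.23 for the immunoproteasome, while all libraries lie near 0 over all tested genes.

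Of 11 tested partners of the proteasome that the name rule does not reach, 6 rose and 0 fell, against 26.6% and 28.8% of all tested genes (median log2 0.27, against -0.00). Zfand5, a ubiquitin-binding protein that activates the proteasome, had 60.0, 52.6 and 68.5 CPM at day 0 and 133, 140 and 148 CPM at day 5 and rose by a log2 of 1.22 ± 0.09. The proteasome-bound deubiquitinases Uchl5 and Usp14 rose by 0.61 ± 0.10 and 0.37 ± 0.07. The subunits Adrm1 and Sem1 and the 20S maturation factor Pomp were not called, with log2 differences of 0.02, -0.19 and -0.09. In the list of ubiquitin supply and delivery, 3 of 13 rose, a share near the 26.6% of all tested genes, and 1 fell, against 28.8%, with a median of 0.02. The shuttle factors Rad23b (0.30) and Ubqln1 (0.17) were among those that rose, and the activating enzyme Uba1 fell by 0.23.

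Genes known to regulate proteasome transcription were mostly lower at day 5, with 8 of 12 lower and 2 higher, against 28.8% and 26.6% of all tested genes, and a median log2 difference of -0.28. Nfe2l1, which encodes Nrf1, the main driver of the response to proteasome inhibition, had 323, 349 and 338 CPM at day 0 and 289, 300 and 266 CPM at day 5 and fell by 0.24 ± 0.07. Nfe2l2, which encodes Nrf2, the factor in the title of the study, fell by 0.73 ± 0.07, and Ddi2, the protease that cuts Nrf1, by 0.33 ± 0.08. Ngly1, which removes sugars from Nrf1, rose by 0.57 ± 0.09. Nfya, a subunit of the CCAAT-binding factor NF-Y, fell by 0.83 ± 0.07, while its partner Nfyc rose by 0.36 ± 0.09. Stat3 fell by 0.60 ± 0.07. These are transcript levels, and Nrf1 and Nrf2 are known to be controlled largely as proteins, which were not measured.

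The genes that induce the immunoproteasome and those that use its peptides were also mostly lower at day 5. Of 9 genes of interferon-gamma signalling, 7 fell and 0 rose, where 28.8% of all tested genes fell and 26.6% rose, and the median was -0.66. Irf1, a direct activator of the inducible subunits, had 53.3, 57.1 and 51.2 CPM at day 0 and 27.0, 24.8 and 24.5 CPM at day 5 and fell by 1.08 ± 0.08. Irf8, a myeloid interferon regulatory factor, fell by 1.99 ± 0.10, Nlrc5, the transactivator of MHC class I genes, by 1.07 ± 0.11, and the receptor gene Ifngr1 by 0.95 ± 0.06. Of 10 genes of MHC class I peptide supply, 7 fell and 1 rose, against the same 28.8% and 26.6%, with a median of -0.35 and with Nlrc5 in both lists. H2-K1, which may share reads with related class I genes, fell by 0.55 ± 0.08, B2m by 0.43 ± 0.07 and the loading factor Tapbp by 0.61 ± 0.09. Tap2, a subunit of the peptide transporter, was the exception, with 45.3, 42.3 and 47.7 CPM at day 0 and 93.5, 82.5 and 82.7 CPM at day 5, a rise of 0.93 ± 0.08.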

How the data were processed

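Libraries were made from poly(A) RNA by a strand-keeping dUTP method and sequenced as read pairs, per the labels' protocols. Per the submitters' processing notes, the tools were edgeR, StringTie, HISAT2 and fastp, with no version, and the build was GRCh38, a human assembly, although the gene identifiers are mouse. All 50 genes are in GENCODE M21 for GRCm38, 43 with the same start and end. The count columns are whole numbers per gene that the authors deposited without normalization. A count of 4 was more frequent than 3 or 5 in every library (885 against 357 and 260 genes in day 0 replicate 1), so 1 count may not be 1 read pair. The deposited FPKM columns were computed by the authors per length and depth. They divide by the length of all annotated exons, so levels between genes were recomputed as CPM per kilobase of the longest principal coding transcript.

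Genes that reached an FPKM of 1 in 3 or more libraries were fitted (edgeR 4.0.16 in R 4.3.3, TMM, quasi-likelihood test, Benjamini-Hochberg adjustment over 11908 genes, call under 0.05). The SE is the log2 difference over the root of F. The common biological coefficient of variation was 0.117, and in simulated counts with 200 changed genes there were 10 false calls. Alternatives used limma 3.58.1, DESeq2 1.42.0, other scalings, filters and left-out libraries. Near copies were found with BLAST 2.17.0 (at least 90% identity over 50% of the transcript). Promoters came from RefSeq for 42 genes (45 windows). Between libraries of the same day chi-square was at least 22.9 per degree of freedom, so no pair agreed within sampling noise. All genes that the name rule found are described, by role. From each pathway list the 3 called genes with the largest differences are named, and further ones were named after their values were seen. Some genes of these lists are not reported here. The gene names, roles and lists were chosen with earlier results of these data known. Figures were drawn with matplotlib 3.10.9.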

Additional observations from a re-analysis of the deposited data

How the results depend on the processing

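Each proteasome gene was refitted under 15 alternatives. Of the 23 called genes, 16 kept their call in all of them, the 4 that fell among these, and 0 changed direction. The calls of Psma1, Psma6, Psmb6, Psmc3ip, Psmd14, Psme4 and Psmg2 were lost in at least 1 alternative, and Psma5, Psmd2, Psmd6, Psmd8 and Psmg4 gained a call in at least 1. The fitted sign of 9 uncalled genes changed, with values of at most 0.10 in size. The number of genes that rose was 13 to 18 with a library left out and 23 with library totals in place of TMM, which moved the median of all genes by 0.058, while 4 to 5 fell. The number of 20S alpha and constitutive beta genes that rose was 3 to 6 with a library left out, 3 of them without day 5 replicate 2. With log2(FPKM + 1) for both genes, the log2 ratio of Psmb9 to Psmb6 differed by -0.86 in place of -1.04, since the added 1 is large beside the FPKM of Psmb9. The deviations of same-numbered libraries correlated at -0.07, 0.15 and 0.03, and those of differently numbered libraries at -0.14 to 0.11. With 3 libraries a day, this cannot settle whether the numbers pair the libraries. With a replicate block 18 genes rose and 4 fell. At this depth Psmb11, with at most 4 counts in a library, could not be tested.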
